A study of Mus musculus with 93 samples.

Results

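Developmental basic helix-loop-helix (bHLH) transcription factor genes were followed in RNA-seq of mouse embryonic stem cells. They were chosen by gene symbol, and the rule itself used no measured value. The rule took the Neurog, Neurod, Ascl, Atoh, Olig, Hand, Twist, Hes, Hey, Id, Mesp, Tal and Sim families, Msgn1, Lyl1, Ptf1a, Tcf15, Tcf21, Bhlhe22, Bhlhe23, Bhlhe40, Bhlhe41 and the muscle genes Myod1, Myf5 and Myf6. It matched 52 of the 33924 gene names in each deposited count table.

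A bHLH factor binds DNA as a dimer, through a basic stretch that reads the E-box and a helix-loop-helix that holds the partners together. Most tissue-restricted members pair with a broadly expressed E protein and switch on genes of a lineage such as neurons, muscle, blood or mesoderm. Id proteins have the helix-loop-helix but no basic stretch, so they tie up E proteins without binding DNA, and in embryonic stem cells they are known as targets of BMP signalling. Hes and Hey proteins, many of them targets of Notch, repress transcription together with Groucho corepressors. Promoters of many lineage genes of this kind are known in embryonic stem cells as places where Polycomb complexes sit.

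The 12 RNA-seq libraries, of 93 samples in the series, came from R1 mouse embryonic stem cells grown with serum and leukaemia inhibitory factor. Set 1 holds 3 libraries of cells with the Ring1b I53A change, in the Polycomb subunit that places ubiquitin on histone H2A, and 3 wild type (WT) libraries. Set 2 holds 3 libraries labelled H1b/c/d/e-QKO, a label naming linker histone genes, and 3 WT libraries of its own. The labels give no other allele, agent or age, and say neither how many clones stand behind a line nor whether replicates were separate cultures, so p-values speak only of library-to-library spread, which could be technical. No chromatin assay of the series was used here.

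Library totals lay between 12585621 and 23378930 counts. Rnf2, the gene of Ring1b, averaged 93.2 ± 6.58 CPM in I53A and 186 ± 7.72 CPM in WT of set 1 (SD, n = 3 each), where CPM is the gene's share of the scaled library total, multiplied up as is usual for this unit. These counts do not show the mutation itself. Of the genes the QKO label names, Hist1h1c averaged 8.30 ± 1.04 CPM in QKO and 9.11 ± 0.706 CPM in WT, and Hist1h1b averaged 3.10 ± 0.396 CPM in QKO and 0.274 ± 0.205 CPM in WT (SD, n = 3 each). Hist1h1d held 27 and 27 summed counts in QKO and WT, and Hist1h1e 22 and 8, so none was called lower at the RNA level and QKO stands below for the libraries labelled so. Summed levels of 8 embryonic stem cell markers were 4670 to 5360 CPM in I53A against 5620 to 6500 CPM in WT of set 1, and 7250 to 7360 CPM in QKO against 6370 to 6460 CPM in WT of set 2. Of the 8, 1 was called higher and 4 lower in I53A, and 5 higher and 3 lower in QKO. All 10 primitive endoderm markers rose in I53A, with sums of 2240 to 2310 CPM against 128 to 141 CPM in WT, and their part in the I53A results was not tested. In QKO 4 of 8 tested rose and none fell, at 142 to 151 CPM against 115 to 131 CPM in WT. Markers of fibroblast feeder cells summed to 1420 to 1580 CPM in I53A against 1460 to 1550 CPM in WT, and to 1440 to 1570 CPM in QKO against 1780 to 2010 CPM in WT, nearly all of it Fn1. Of that list, 5 of 6 tested genes rose in I53A and none fell, with Col1a2 at 4.83 ± 0.488 CPM in I53A against 0.314 ± 0.0808 CPM in WT, and 3 of 5 rose in QKO while Fn1 fell, with Col1a2 at 4.70 ± 0.808 CPM in QKO against 0.160 ± 0.148 CPM in WT (SD, n = 3 each). Col1a2 passed the low-count filter, described below, through the mutant libraries in which it was high. Lum was at 0 in I53A, and Postn and Dcn were at 0 in WT of set 1. In set 2, Lum and Dcn were at 0 in both groups, and Col3a1, Col6a3 and Postn were at 0 in WT only. The part of such cells in the results was not tested. Beside these marker counts, 35.5% of all genes tested were called in I53A and 57.7% in QKO. In bulk RNA, a change in the share of cells that express a gene and a change in RNA per cell cannot be told apart.

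Most of these genes were barely transcribed. No library of the 12 held a count of Neurod6 or Myf5, and 21 of the 52 genes reached 100 counts summed over all libraries. Between 32 and 43 members were detected per library with at least 1 count. The filter on low counts left 22 members in set 1 and 19 in set 2, of which 18 were the same genes, and 29 members passed in neither set.

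Promoter sequence was available for 37 of the members, as 40 windows of 300 bases, from 250 before to 50 after the annotated start (RefSeq, GRCm38.p6). An E-box, searched as CANNTG (its own reverse complement in pattern, so both strands are covered), lay in 28 windows, or 70.0%, against 72.3% of 32851 windows of all genes. The N-box read by Hes proteins, searched as CACNAG on both strands, lay in 16 member windows, or 40%, against 42.5% of all. The RBPJ motif TGGGAA, also on both strands, lay in 32.5% against 25.6%. The palindrome CACGTG, a subset of the E-box matches, lay in 7.50% against 7.15%. Member windows held a median of 16.5 CpG dinucleotides (range 3 to 41), against 7 over all windows (range 0 to 67). A match is a description of letters only, and its absence speaks of this window alone.

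The 250 bases before the start are printed for 5 genes whose RNA carried the comparisons below, in lower case with E-boxes in capitals. They are Mesp2 (chr7:79810477-79810726, plus strand), Neurog3 (chr10:62132840-62133089, plus strand), Ascl2 (chr7:142969265-142969514, minus strand), Id3 (chr4:136143572-136143821, plus strand) and Atoh1 (chr6:64728875-64729124, plus strand), all RefSeq, GRCm38.p6, written 5′ to 3′.
Mesp2: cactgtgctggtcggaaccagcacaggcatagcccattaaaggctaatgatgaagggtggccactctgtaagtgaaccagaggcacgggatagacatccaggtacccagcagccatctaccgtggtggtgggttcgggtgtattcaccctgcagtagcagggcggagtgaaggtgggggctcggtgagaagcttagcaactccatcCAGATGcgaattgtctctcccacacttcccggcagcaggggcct
Neurog3: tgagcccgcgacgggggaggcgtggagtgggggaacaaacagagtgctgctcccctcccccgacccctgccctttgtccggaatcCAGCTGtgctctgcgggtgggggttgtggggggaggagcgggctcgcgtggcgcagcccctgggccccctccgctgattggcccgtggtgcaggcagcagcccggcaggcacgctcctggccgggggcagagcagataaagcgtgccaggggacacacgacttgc
Ascl2: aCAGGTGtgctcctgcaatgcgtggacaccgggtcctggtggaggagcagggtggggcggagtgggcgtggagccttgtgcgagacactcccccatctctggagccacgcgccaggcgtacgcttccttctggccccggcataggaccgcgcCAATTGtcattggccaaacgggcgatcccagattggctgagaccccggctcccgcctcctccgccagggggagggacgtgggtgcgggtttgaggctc
Id3: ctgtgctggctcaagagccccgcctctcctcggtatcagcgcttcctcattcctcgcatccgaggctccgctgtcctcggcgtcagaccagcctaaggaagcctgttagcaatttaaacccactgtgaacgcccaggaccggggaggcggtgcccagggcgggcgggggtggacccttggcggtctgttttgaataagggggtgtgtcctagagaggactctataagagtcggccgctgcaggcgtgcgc
Atoh1: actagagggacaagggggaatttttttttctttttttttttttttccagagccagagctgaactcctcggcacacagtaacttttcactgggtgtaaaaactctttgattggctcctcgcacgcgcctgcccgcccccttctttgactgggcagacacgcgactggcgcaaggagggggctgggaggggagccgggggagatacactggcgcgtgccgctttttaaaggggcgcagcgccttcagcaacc

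The Mesp2 stretch has the E-box CAGATG 44 bases before the start, and a further CAAATG follows after the start, beyond the printed bases. Neurog3 has CAGCTG 165 bases before its start. Ascl2 has CAGGTG 249 bases and CAATTG 98 bases before its start, and 3 N-boxes in its 300-base window. Id3 and Atoh1 have no E-box in the window, and Atoh1 has 1 N-box. Id3, which rose in both mutants, and Atoh1, which rose in I53A, lacked the letters that Mesp2, Neurog3 and Ascl2 carried. Mesp2 and Neurog3 also rose in I53A and Ascl2 rose in QKO, so the letters did not set risen genes apart. Hand1, Tcf15 and Bhlhe40, which also changed, had no promoter window available.

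The highest mean level belonged to an inhibitor. Levels were compared between genes as RPKM, which is CPM divided by the exon length in kilobases, scaled over all 12 libraries. Id1 led with 126 ± 2.70 RPKM in I53A, 119 ± 12 RPKM in WT of set 1, 57.5 ± 0.971 RPKM in QKO and 56.8 ± 3.30 RPKM in WT of set 2 (SD, n = 3 each). Tcf15, the somite and epiblast factor, came second, with 45.6 ± 7.31 RPKM in I53A, 20.4 ± 3.68 RPKM in WT of set 1, 48.6 ± 3.09 RPKM in QKO and 81.1 ± 9.42 RPKM in WT of set 2. In WT of set 2, Tcf15 stood above Id1.

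Other members with a clear level were Id3, Id2, Hes1, Bhlhe40 and Hes6. In I53A the order of their mean RPKM was Id3 at 38.3, Id2 at 18.1, Hes1 at 10.8, Hes6 at 8.53 and Bhlhe40 at 2.04. In WT of set 2 it was Bhlhe40 at 33.3, Hes1 at 19.3, Id2 at 10.1, Id3 at 8.96 and Hes6 at 8.16. Id2, Id3 and Hes6 in that group lay within 2 RPKM of each other, and the Hes6 spread (0.998 RPKM, SD) reached Id3.

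The Id genes held 61.6 to 67.7% of all member counts per I53A library and 61.0 to 68.4% in WT of set 1. They held 44.8 to 46.7% in QKO and 26.6 to 28.2% in WT of set 2. The WT groups thus differed from each other in this family, mostly through Id1, Tcf15 and Bhlhe40, and the set cannot be told apart from the batch in which it was made. For that reason every comparison was made within a set.

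Levels fell steeply outside these genes. The leading member of the proneural and neuronal group, Neurod1, had 0.986 ± 0.121 RPKM in WT of set 1 and 1.15 ± 0.227 RPKM in WT of set 2. In the blood group Lyl1 led by the mean over the 12 libraries, with 0.322 ± 0.115 RPKM and 0.430 ± 0.128 RPKM in the same WT groups, although Tal1 was level with it in WT of set 1, at 0.328 ± 0.0921 RPKM. The muscle group was led by Myod1, which had at most 10 counts in any library, and the bHLH-PAS group by Sim2, which had at most 6. Myf6 held 1 count in QKO, 1 in WT of set 2 and none in set 1.

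**Figure D1:**
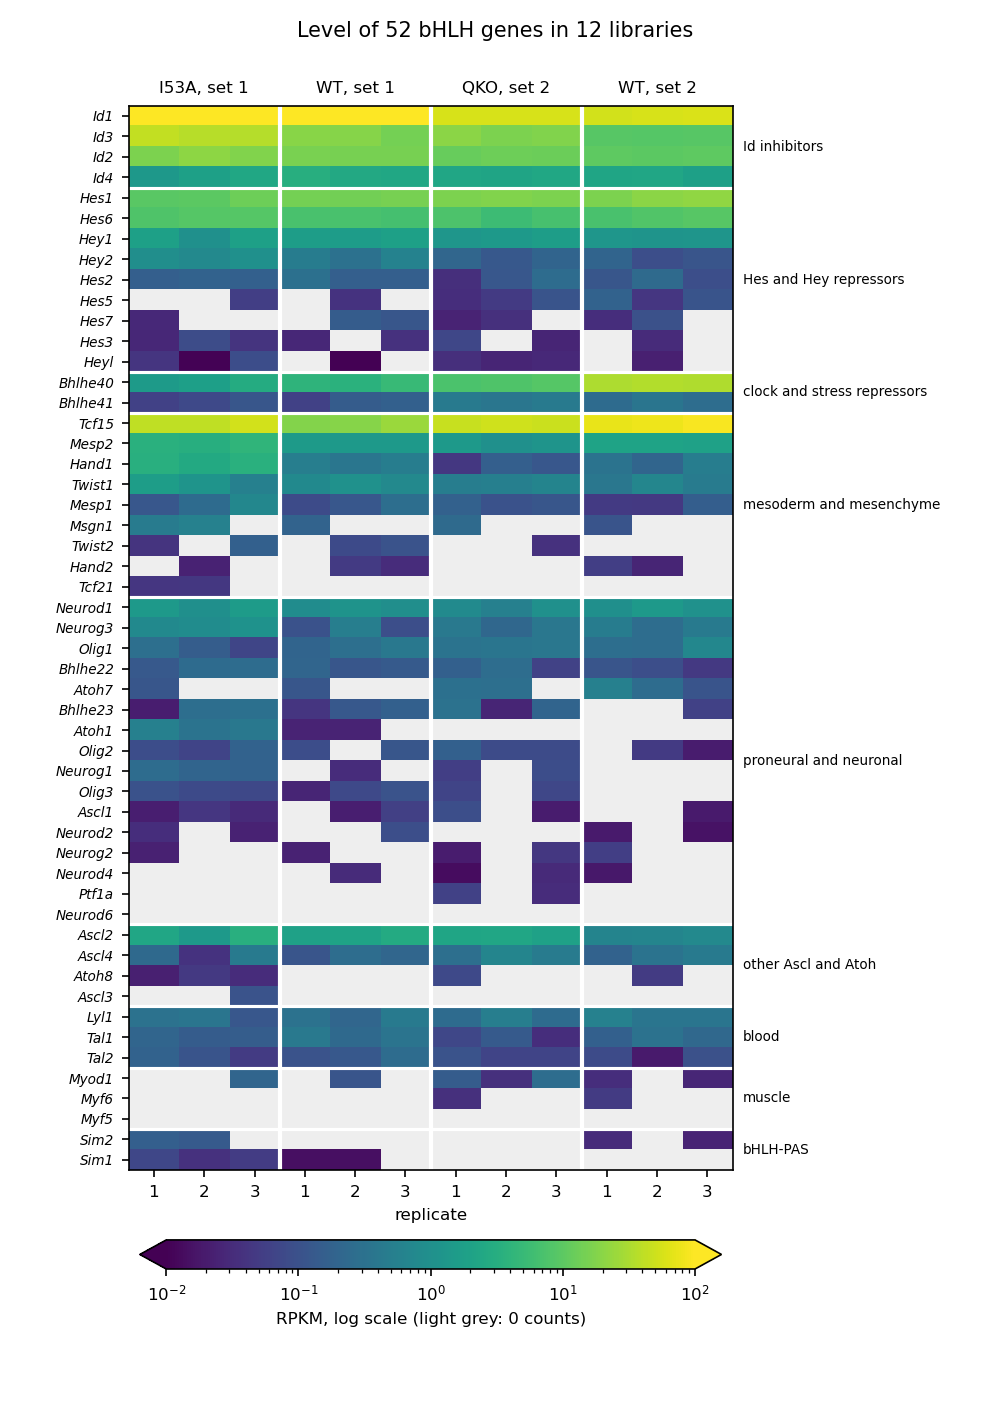
Heat map of the level of the 52 bHLH genes (rows, grouped by role and ordered by mean level) in the 12 libraries (columns, replicates 1 to 3 of I53A, WT, QKO and WT), as RPKM on a log colour scale, with 0 counts in light grey. Id1, Id2, Id3, Hes1, Hes6 and Tcf15 are bright in every library, and rows of proneural, muscle and bHLH-PAS genes hold many libraries at 0.

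In I53A cells, 7 bHLH genes were higher and 2 were lower than in WT of set 1, out of 22 tested. The genes that rose were the mesoderm factors Hand1, Mesp2 and Tcf15, the proneural factors Atoh1 and Neurog3, the Id inhibitor Id3 and the Notch-responsive repressor Hey2. The genes that fell were the repressors Bhlhe40 and Hes1. Calls are at an adjusted p under 0.05, from edgeR's quasi-likelihood test with Benjamini-Hochberg adjustment over all genes tested.

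Of 15536 genes tested, 5512 were called, or 35.5%, with 18.1% higher and 17.4% lower. The members' 40.9% stands near that background in total, so the count of calls says little about the family. The median log2 fold change of the 22 tested members was 0.26, beside 0.00 over all genes. The 3 I53A libraries lay wholly above the WT libraries for 9 members and wholly below for 4, where 24.7% of all tested genes did so in each direction and 49.4% in either. With a change of at least 2-fold as well, 6 members were higher and 1 lower, beside 8.41% and 3.61% of all tested genes. Atoh1 and Neurog3, counted here, passed the low-count filter through the I53A libraries in which they were high, so the counts are a description and no support. The summed level of the 52 genes was 367 to 409 CPM in I53A and 300 to 318 CPM in WT. With replicate numbers as a block, where same-numbered libraries of set 1 deviated together and replicate 3 stood apart, 8798 genes were called and Hes6 and Id2 joined the higher members and Id4 the lower.

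Replicate 3 of both set 1 groups was shallower than replicates 1 and 2 and its files are named in another style, so it was treated as a possible batch. Below, the log2 ratio of mean CPM within replicates 1 and 2 and that in replicate 3 are given beside the pooled value of each called gene. The values for replicate 3 rest on 1 library per group and have no test. Among the tested genes that were not called, both values had the same sign for Hes6, Id2, Id4, Neurod1, Bhlhe22, Bhlhe41, Tal1 and Olig1. They had opposite signs for Twist1 (0.61 and -0.46), Lyl1 (0.35 and -1.83), Ascl2 (-0.10 and 0.24), Hey1 (-0.21 and 0.02) and Id1 (-0.02 and 0.27). Sizes were far apart for Olig1 (-0.16 and -2.54) and Id4 (-0.87 and -0.06).

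Among the mesoderm genes, Hand1 changed most. It acts in heart, trophoblast giant cells and extraembryonic mesoderm, and sits on chromosome 11 between 57642207 and 57646320, minus strand. This and all other gene positions are in mm9. Its level was 6.87, 5.57 and 7.42 CPM in the I53A libraries, against 1.07, 0.782 and 1.07 CPM in WT. Every I53A library was at least 5 CPM and no WT library passed 2 CPM. The log2 fold change was 2.76 ± 0.24 (SE), with an adjusted p of 9.15e-05 in edgeR. Within replicates 1 and 2 it was 2.75, and in replicate 3 it was 2.79.

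Mesp2, which sets the boundaries between somites, maps to chromosome 7 (86955613 to 86958317, plus strand). It stood at 7.09, 6.41 and 8.37 CPM in I53A, against 3.09, 2.85 and 2.90 CPM in WT. The groups were far apart relative to the narrow spread of the WT libraries. The log2 fold change was 1.30 ± 0.18 (SE), adjusted p = 0.000946 in edgeR, with 1.19 within replicates 1 and 2 and 1.53 in replicate 3. Mesp1, its neighbour 16939 bases away and a factor of early cardiac mesoderm, held 21 counts in I53A and 10 in WT and was not tested.

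Tcf15 (chromosome 2, 151969297 to 151974833, plus strand) had 42.8, 42.0 and 56 CPM in I53A, against 18.4, 19.5 and 25.8 CPM in WT. Replicate 3 was the highest library in each group, and the groups did not overlap. Its log2 fold change was 1.14 ± 0.16 (SE), adjusted p = 0.00117 in edgeR, with 1.16 within replicates 1 and 2 and 1.12 in replicate 3. Of the 9 mesoderm and mesenchyme genes 4 were tested, and these 3 rose while none fell, with a median log2 fold change of 1.22 over the 4. The share called was 75.0%, beside 35.5% of all genes tested. The remaining tested gene, Twist1, a mesenchyme factor, had a log2 fold change of 0.39 ± 0.40 (SE), with overlapping groups and an adjusted p of 0.485 in edgeR.

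Markers of mesoderm outside the family summed to 18.5 to 21.2 CPM in I53A and 7.54 to 8.71 CPM in WT. Of 5 tested, Kdr and T rose and none fell. Kdr, a receptor of vascular progenitors, averaged 13.6 ± 2.36 CPM in I53A and 2.02 ± 0.249 CPM in WT, and T, the brachyury factor, held 32 counts in I53A and 7 in WT. T passed the low-count filter through the I53A libraries in which it was high. Foxf1a was at 0 in WT and had 4 counts in I53A. Trophoblast markers summed to 114 to 123 CPM in I53A against 37.9 to 42.2 CPM in WT. Of 5 tested, 4 were higher and none lower, or 80.0% called, beside the same 35.5% of all genes tested. The part of these cell types in the rise of Hand1, Mesp2 and Tcf15 was not tested.

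Among the proneural genes, Atoh1 was almost silent in WT. This factor of cerebellar granule neurons, hair cells and secretory gut cells lies on the plus strand of chromosome 6 from 64679140 to 64681227. It held 22, 13 and 11 counts in the I53A libraries, against 1, 1 and 0 in WT, and it passed the low-count filter through the I53A libraries alone. In summed counts scaled by depth the ratio was 23.2, with an exact 95% interval of 6.06 to 197 that covers counting error only. The fitted log2 fold change was 4.29 ± 0.67 (SE), adjusted p = 0.00176 in edgeR, with 4.12 within replicates 1 and 2; replicate 3 gave no value, as its WT library was at 0. A filter of 1 CPM in 3 libraries removed the gene from the test.

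Neurog3, which specifies endocrine cells of the pancreas, lies on the plus strand of chromosome 10 from 61595838 to 61597511. Its level was 1.27, 1.41 and 1.82 CPM in I53A, against 0.169, 0.837 and 0.153 CPM in WT. WT replicate 2 was the highest WT library and still lay below the lowest I53A library. All 3 I53A libraries but only 1 WT library reached the level of the low-count filter, so the gene was tested because of the group in which it was high. The log2 fold change was 1.87 ± 0.58 (SE), adjusted p = 0.0368 in edgeR, with 1.41 within replicates 1 and 2 and 3.57 in replicate 3. The call was lost without I53A replicate 1 (adjusted p = 0.0867), 2 (0.0913) or 3 (0.0759) and without WT replicate 1 (0.125) or 3 (0.0658), and without WT replicate 2 the log2 fold change was 3.14 (0.00607). Neurog3 overlaps 2010107G23Rik on the other strand, whose log2 fold change was 0.09 ± 0.13 (SE), and since no strand option was set in counting, reads in the shared stretch cannot be told apart.

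Of 16 proneural and neuronal genes 5 were tested, and Atoh1 and Neurog3 rose while none fell, with a median log2 fold change of 0.47. Neurod1, of neurons and beta cells, had 4.10, 2.81 and 4.58 CPM in I53A, against 2.58, 3.24 and 2.75 CPM in WT. Its groups overlapped, with a log2 fold change of 0.41 ± 0.24 (SE) and an adjusted p of 0.226 in edgeR. Bhlhe22 was at 0.47 ± 0.45 and Olig1, an oligodendrocyte factor, at -0.71 ± 0.56 (log2 fold change ± SE). Neurog1, a sensory neuron factor too sparse for the test, held 8, 6 and 4 counts in I53A and 0, 1 and 0 in WT. Its ratio was 18.1, with an exact 95% counting interval of 2.86 to 755, and it was called higher by DESeq2 and without the low-count filter. Markers of neural cells outside the family summed to 133 to 152 CPM in I53A and 129 to 152 CPM in WT. Of 5 tested, 2 were higher and 2 lower, or 80.0% called, beside 35.5% of all genes tested.

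The inhibitors did not move together, and of 4 tested 1 was called higher and none lower, at a median log2 fold change of 0.16. This 1 of 4 did not exceed the background, as 35.5% of all genes tested were called. Id3 (chromosome 4, 135699412 to 135701670, plus strand) had 80.2, 68.5 and 67.3 CPM in I53A, against 37.6, 35.9 and 28.1 CPM in WT. The lowest I53A library lay well above the highest WT library. The log2 fold change was 1.09 ± 0.13 (SE), adjusted p = 0.00046 in edgeR, with 1.02 within replicates 1 and 2 and 1.26 in replicate 3.

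Id1, at a far higher level, had 156, 149 and 157 CPM in I53A and 154, 154 and 130 CPM in WT. These libraries overlapped and the log2 fold change was 0.08 ± 0.08 (SE), adjusted p = 0.522 in edgeR. Id2 was at 0.24 ± 0.11 with every I53A library above WT, and Id4 at -0.59 ± 0.25 with every I53A library below WT (log2 fold change ± SE), at adjusted p of 0.138 and 0.0986 in edgeR. With the replicate block the adjusted p became 0.0494 for Id2 and 0.0395 for Id4.

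Of the 9 Hes and Hey genes 4 were tested, and 1 rose and 1 fell, around a median log2 fold change of 0.07. The share called was 50.0%, beside 35.5% of all genes tested. Hes1, the main Notch-responsive repressor of the family, had 20.5, 20.5 and 28.6 CPM in I53A, against 31.2, 30.1 and 33.3 CPM in WT. All I53A libraries were lower, replicate 3 by the least. The log2 fold change was -0.45 ± 0.14 (SE), adjusted p = 0.04 in edgeR, with -0.58 within replicates 1 and 2 and -0.22 in replicate 3. The call ended without I53A replicate 1 (adjusted p = 0.148) or 2 (0.136) and without WT replicate 1 (0.103), 2 (0.0769) or 3 (0.0676).

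Hey2, a Notch-responsive repressor of heart and artery, had 2.49, 2.03 and 2.76 CPM in I53A, against 1.29, 0.837 and 1.61 CPM in WT. The groups did not overlap, and the log2 fold change was 0.97 ± 0.31 (SE), adjusted p = 0.042 in edgeR, with 1.09 within replicates 1 and 2 and 0.78 in replicate 3. The call ended without I53A replicate 1 (adjusted p = 0.119), 2 (0.0669) or 3 (0.0962) and without WT replicate 1 (0.1) or 2 (0.131), and under DESeq2 or without the low-count filter. Hes6, which is known to counter Hes1, was at 0.28 ± 0.11 and Hey1 at -0.13 ± 0.27 (log2 fold change ± SE), neither of them called.

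Bhlhe40, a repressor tied to the circadian clock and hypoxia, lies on the plus strand of chromosome 6 from 108610623 to 108616919. It had 5.10, 6.13 and 9.87 CPM in I53A, against 14.0, 12.6 and 17.1 CPM in WT. No I53A library reached the lowest WT library. In the fit its log2 fold change was -1.06 ± 0.25 (SE), adjusted p = 0.0113 in edgeR, with -1.24 within replicates 1 and 2 and -0.80 in replicate 3. It overlaps 0610040F04Rik on the minus strand, which held 16 counts in I53A and 64 in WT and also fell, and the strands cannot be told apart here. Bhlhe41, its paralog, held 26 counts in I53A and 39 in WT, and its groups overlapped.

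Outside these groups no tested member was called by edgeR or DESeq2, and 1, Tal1, had an unadjusted p under 0.05. Tal1, a factor of blood progenitors, had 0.942, 0.675 and 0.711 CPM in I53A, against 1.91, 1.06 and 1.61 CPM in WT. The groups did not overlap, but the adjusted p was 0.0691 in edgeR, at a log2 fold change of -0.96 ± 0.36 (SE). Lyl1, its paralog, had 0.610, 0.675 and 0.237 CPM in I53A and 0.618, 0.391 and 0.841 CPM in WT, and its log2 fold change was -0.20 ± 0.51 (SE). Lyl1 overlaps Nfix on the other strand, whose log2 fold change was 0.93 ± 0.31 (SE) in I53A and -1.04 ± 0.29 in QKO. Ascl2, the imprinted factor of trophoblast and intestinal stem cells, had 3.94, 2.42 and 5.76 CPM in I53A and 3.31, 3.52 and 4.89 CPM in WT, and its groups overlapped.

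Members too sparse to test are given as counts. Sim1, a hypothalamic factor, held 10, 5 and 5 counts in I53A and 2, 2 and 0 in WT, a scaled ratio of 5.03 with an exact 95% counting interval of 1.69 to 20.3. Sim2 had 6, 5 and 0 counts in I53A and none in WT. With the WT group set to a floor of 3 counts the Sim2 ratio was 3.69, and the exact 95% counting interval began at 2.53. Heyl had 11 counts in I53A and 1 in WT, and Msgn1, of presomitic mesoderm, 11 and 2. The other untested members had at most 24 summed counts in I53A and at most 29 in WT.

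**Figure D2:**
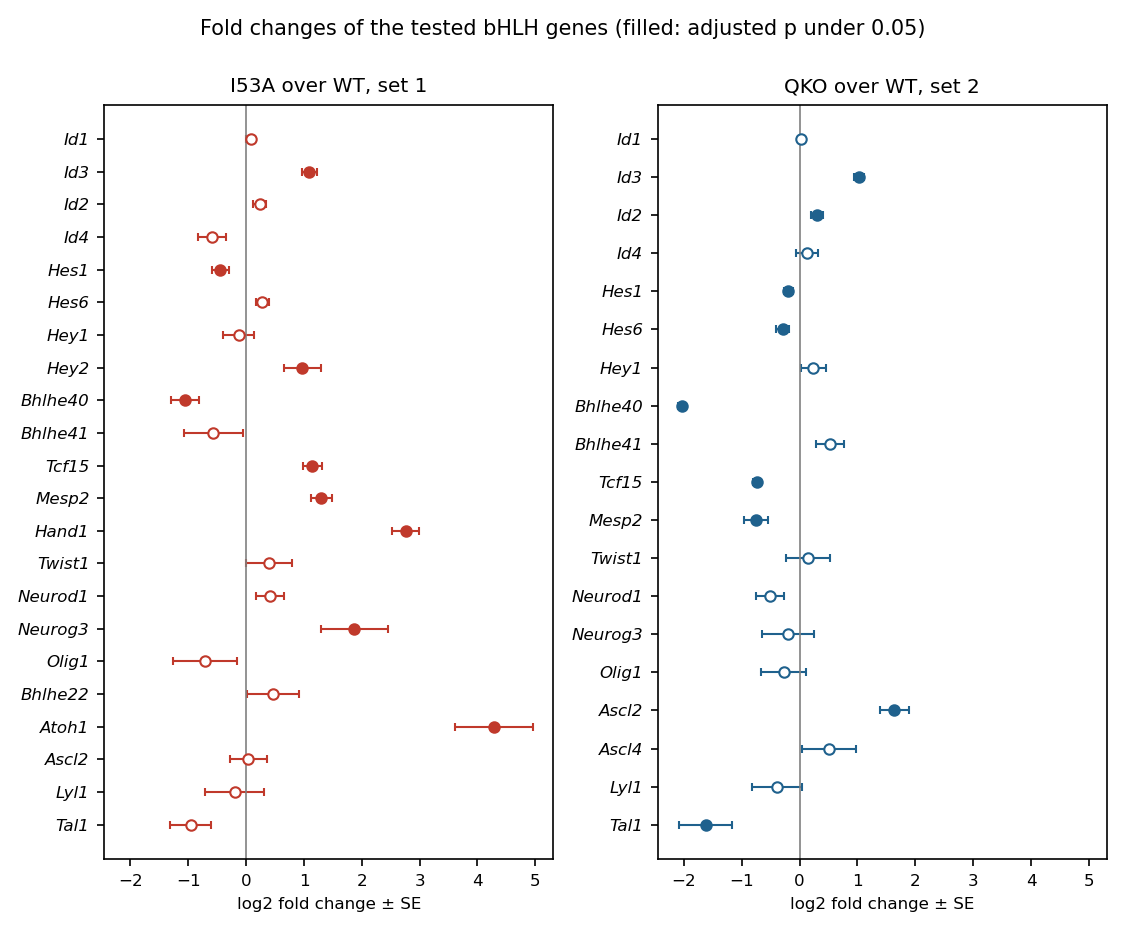
Log2 fold change ± SE of each tested bHLH gene, for I53A over WT in set 1 (left, 22 genes) and QKO over WT in set 2 (right, 19 genes), ordered by role, with filled points at an adjusted p under 0.05. Hand1, Mesp2, Tcf15, Neurog3 and Atoh1 lie right of 0 with filled points for I53A, while Tcf15 and Mesp2 lie left of 0 with filled points for QKO.

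In QKO libraries, 3 bHLH genes were higher and 6 lower than in WT of set 2, out of 19 tested. Ascl2, Id3 and Id2 rose. Bhlhe40, Tal1, Mesp2, Tcf15, Hes6 and Hes1 fell. Among the tested members the largest decrease was that of Bhlhe40.

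Of 15439 genes tested, 8903 were called, or 57.7%, with 28.7% higher and 29.0% lower. The members' 47.4% did not exceed that background. The median log2 fold change of the 19 tested members was -0.19, beside 0.00 over all genes. The QKO libraries lay wholly above WT for 4 members and wholly below for 4, against 30.6% and 30.9% of all tested genes, and 61.5% in either direction. With a change of at least 2-fold as well, Ascl2 and Id3 were higher and Bhlhe40 and Tal1 lower, beside 8.58% and 3.34% of all tested genes. Tal1, counted here, passed the filter through the WT libraries. The summed level of the 52 genes was 247 to 248 CPM in QKO and 319 to 362 CPM in WT, and among the members Bhlhe40 and Tcf15 had the largest drops in CPM.

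Bhlhe40 had 23.2, 24.7 and 27.2 CPM in QKO, against 98.7, 106 and 105 CPM in WT. The libraries of each group agree closely and the groups are far apart. As a log2 fold change this was -2.04 ± 0.06 (SE), adjusted p = 7.74e-34 in edgeR. The overlapping 0610040F04Rik held 58 counts in QKO and 43 in WT and was not called. Bhlhe41 had 2.69, 2.24 and 2.53 CPM in QKO, against 1.51, 2.15 and 1.58 CPM in WT. Every QKO library was above WT for this paralog, but with a log2 fold change of 0.52 ± 0.25 (SE) the adjusted p was 0.0651 in edgeR.

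Of 3 tested mesoderm and mesenchyme genes both somite factors were lower and none was higher, with a median log2 fold change of -0.74. The share called was 66.7%, beside 57.7% of all genes tested. Tcf15 had 42.9, 48.4 and 44.3 CPM in QKO, against 68.5, 72.0 and 84.9 CPM in WT, with no overlap. Its log2 fold change was -0.74 ± 0.07 (SE), adjusted p = 1.05e-11 in edgeR. Mesp2 had 2.56, 1.86 and 2.15 CPM in QKO, against 3.83, 3.86 and 3.62 CPM in WT. All QKO libraries were below WT, with a log2 fold change of -0.76 ± 0.21 (SE) and an adjusted p of 0.00156 in edgeR.

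Twist1, the only other mesoderm and mesenchyme gene tested in set 2, was at a log2 fold change of 0.14 ± 0.38 (SE), with overlapping groups. Hand1 was too sparse for the test, with 2, 5 and 5 counts in QKO and 11, 7 and 20 in WT. Its groups did not overlap, and the scaled ratio was 0.295, with an exact 95% counting interval of 0.141 to 0.578. Without the low-count filter Hand1 was called lower. Mesoderm markers outside the family summed to 3.98 to 5.01 CPM in QKO and 6.03 to 6.91 CPM in WT, with Mixl1 and Gata2 lower and none higher of 4 tested. Trophoblast markers summed to 28.9 to 31.7 CPM in QKO and 57.3 to 67.0 CPM in WT, with 3 of 4 lower, and their part in these results was not tested. The shares called were 50.0% of the mesoderm and 75.0% of the trophoblast markers, beside 57.7% of all genes tested.

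Id3 had 34.3, 28 and 29.7 CPM in QKO, against 15.5, 14.8 and 15.3 CPM in WT. The lowest QKO library stood well above the highest WT library. Its log2 fold change was 1.02 ± 0.08 (SE), adjusted p = 3.33e-15 in edgeR. Id2 had 14.0, 15.6 and 15.1 CPM in QKO, against 12.3, 11.8 and 12.1 CPM in WT, a small rise without overlap. Its log2 fold change was 0.30 ± 0.10 (SE), adjusted p = 0.0103 in edgeR. Id1 had 63.8, 64.0 and 62.0 CPM in QKO and 58.9, 62.1 and 65.9 CPM in WT, which overlapped, at a log2 fold change of 0.02 ± 0.06 (SE). Id4 was at 0.13 ± 0.19 and overlapped as well, which left 2 of 4 inhibitors higher and none lower, at a median log2 fold change of 0.21. These 50.0% called did not exceed the 57.7% of all genes tested.

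The Hes genes moved little, with 2 of 3 tested Hes and Hey genes lower and a median log2 fold change of -0.20. The share called was 66.7%, beside 57.7% of all genes tested. Hes1 had 31.9, 34.3 and 31.7 CPM in QKO and 31.3, 38.7 and 41.4 CPM in WT, and WT replicate 1 lay below all QKO libraries. Its log2 fold change was -0.20 ± 0.08 (SE), adjusted p = 0.0279 in edgeR. That call ended under DESeq2 (adjusted p = 0.103) and without QKO replicate 1 (0.104) or 3 (0.0974) or WT replicate 2 (0.0888) or 3 (0.22). Hes6 had 12.9, 9.38 and 11.8 CPM in QKO and 12.4, 13.8 and 15.7 CPM in WT, again with overlap. Its log2 fold change was -0.29 ± 0.11 (SE), adjusted p = 0.0248 in edgeR, and the call ended under DESeq2 and without QKO replicate 2 (0.185) or WT replicate 3 (0.175). Of the other genes of this group, Hey1 alone was tested and had a log2 fold change of 0.24 ± 0.21 (SE).

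Ascl2 was the largest increase among the tested members. It sits on chromosome 7 (150152727 to 150155169, minus strand) and had 3.42, 3.54 and 2.95 CPM in QKO, against 0.986, 0.992 and 1.16 CPM in WT. The groups were separate by more than their spread. This gave a log2 fold change of 1.64 ± 0.25 (SE), adjusted p = 2.03e-07 in edgeR. Per exon length, Ascl2 stood at 2.16 ± 0.204 RPKM in QKO and 0.686 ± 0.0651 RPKM in WT of set 2, while both groups of set 1 lay at 2.38 ± 0.972 RPKM (I53A) and 2.28 ± 0.483 RPKM (WT). Ascl4 was at a log2 fold change of 0.51 ± 0.47 (SE) with overlapping groups.

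Tal1 had 7, 9 and 3 counts in QKO, against 12, 24 and 20 in WT, or 0.299, 0.559 and 0.140 CPM in QKO and 0.696, 1.32 and 0.927 CPM in WT. No QKO library reached the lowest WT library. All 3 WT libraries but only 1 QKO library reached the level of the low-count filter, so the gene was tested because of the group in which it was high. In the fit its log2 fold change was -1.62 ± 0.46 (SE), adjusted p = 0.00209 in edgeR, and a filter of 1 CPM in 3 libraries removed the gene from the test. Lyl1 had 0.427, 0.870 and 0.421 CPM in QKO and 0.986, 0.606 and 0.603 CPM in WT, and overlapped.

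None of the 3 proneural genes tested in set 2 was called by edgeR, around a median log2 fold change of -0.28; 1 of them, Neurod1, had an unadjusted p under 0.05. DESeq2 called none of the 3 but called Bhlhe23, a proneural gene that edgeR's filter had left untested. Neurod1 had 2.09, 1.43 and 2.62 CPM in QKO and 2.55, 3.64 and 2.74 CPM in WT, at a log2 fold change of -0.51 ± 0.24 (SE) and an adjusted p of 0.0592 in edgeR. Neurog3 had a log2 fold change of -0.19 ± 0.45 (SE) and Olig1 of -0.28 ± 0.39 (SE), both with overlapping groups. Atoh1, called in I53A, held no count in any library of set 2, and neither did Sim1.

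Some sparse members were uneven in set 2. Bhlhe23, a retinal factor, held 18, 1 and 10 counts in QKO and 0, 0 and 3 in WT, a scaled ratio of 9.05 with an exact 95% counting interval of 2.80 to 46.4. The spread between the QKO libraries was wide, and QKO replicate 2 lay within the WT range. Myod1, the muscle determination factor, held 6, 1 and 10 counts in QKO and 1, 0 and 1 in WT. Olig2 held 16 summed counts in QKO and 3 in WT. Olig3 held 6 and none, and Neurog1 5 and none. With the WT group set to a floor of 3 counts the ratios were 1.87 and 1.56. The exact 95% counting intervals began at 1.1 for Olig3 and 0.857 for Neurog1, and the groups overlapped for both. Neural markers outside the family summed to 219 to 227 CPM in QKO and 105 to 111 CPM in WT, with 3 of 4 higher and 1 lower, and their part in these values was not tested. All 4 were thus called, beside 57.7% of all genes tested.

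**Figure D3:**
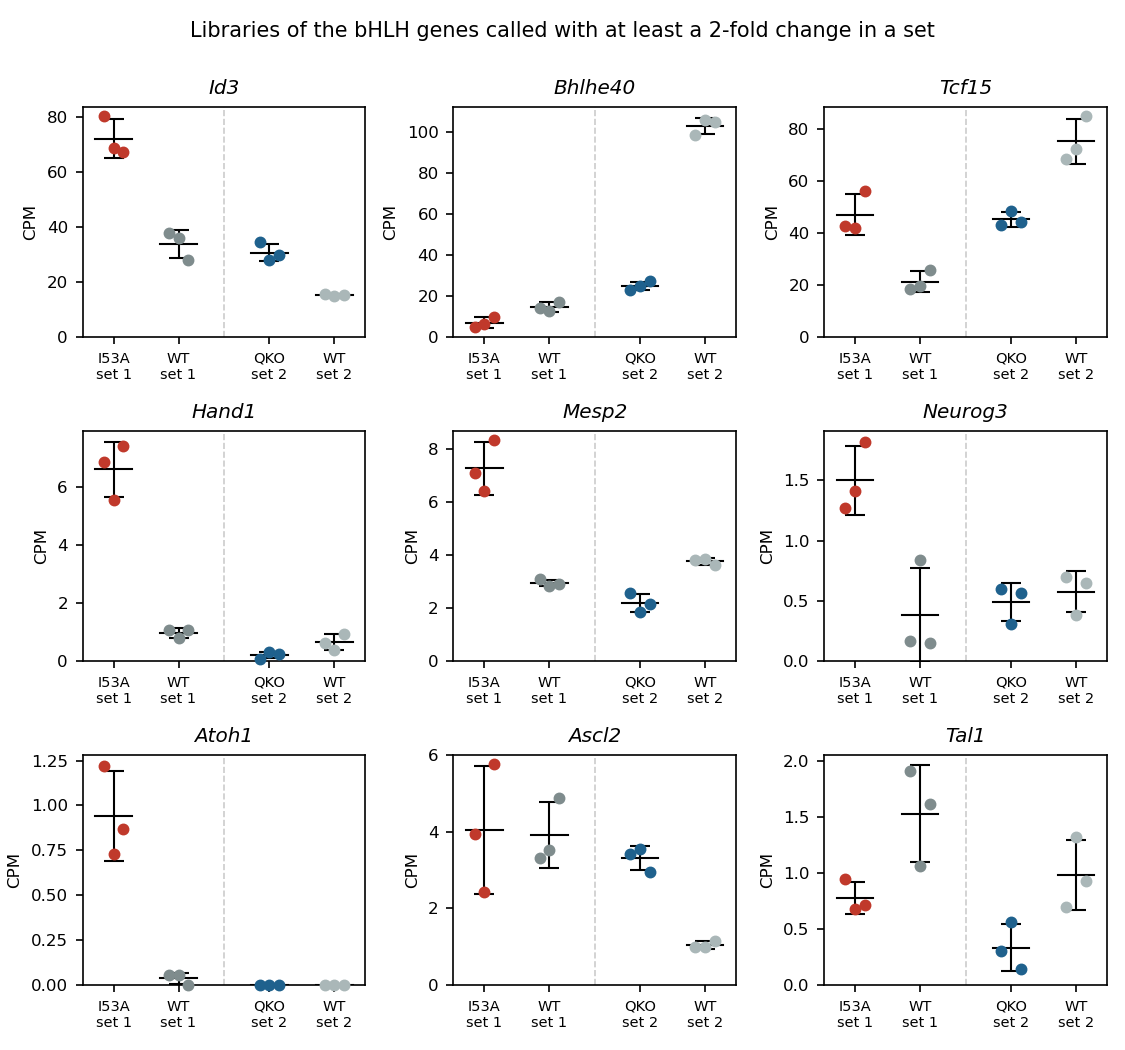
CPM, scaled within each set, of the 9 bHLH genes called with at least a 2-fold change in a set, by group (points, libraries; horizontal line, mean; bars, SD, n = 3). Id3 is higher in both mutants, Bhlhe40 is lower in both, and Tcf15, Hand1 and Mesp2 are above WT in I53A and below WT in QKO.

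Of 18 members tested in both sets, 5 were called in both, or 27.8%, beside 3364 of 14589 genes, or 23.1%. The 5 made up 83.3% of these members' 6 calls in I53A and 55.6% of their 9 calls in QKO, against 66.3% and 39.1% for all genes, and they did not all move alike. Id3 rose in both mutants, Bhlhe40 and Hes1 fell in both, and Tcf15 and Mesp2 rose in I53A and fell in QKO. The Hes1 calls were the less secure, since in each set most fits without a single library lost them, and its groups overlapped in set 2. The difference of the effects, I53A minus its WT less QKO minus its WT, was tested as an interaction over the 12 libraries, in which each mutant has WT libraries of its own. Of 16501 genes tested, 5961 or 36.1% differed, 18.0% with a higher and 18.1% with a lower effect in I53A. Of 24 members with a usable estimate 7 differed; Atoh1 was left out because all set 2 libraries were at 0. Differences of at least 2-fold were found for 4 members with a higher and 1 with a lower effect in I53A, beside 6.12% and 7.39% of all tested genes.

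Hand1 had the largest of the 7 called differences. On the log2 scale the effect on Hand1 was 4.48 ± 0.55 (SE) higher in I53A, adjusted p = 1.99e-05 in edgeR. For Mesp2 the difference was 2.08 ± 0.25 (SE), adjusted p = 1.44e-05, and for Tcf15 it was 1.90 ± 0.19 (SE), adjusted p = 3.96e-06. In all 3 genes the I53A libraries lay above WT and the QKO libraries below WT.

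Neurog3 differed by 2.08 ± 0.74 (SE), adjusted p = 0.0406 in edgeR, and was called in set 1 alone. In set 1 the gene passed the low-count filter through the I53A libraries in which it was high. That set 1 call was lost in most fits without a single library, and the difference was not refitted in that way. The place of Neurog3 among the called differences is a description and no support. Hes6 differed by 0.59 ± 0.18 (SE), adjusted p = 0.019, and its effects had opposite signs. For Bhlhe40, which fell in both, the difference of 0.99 ± 0.24 (SE), adjusted p = 0.0059 in edgeR, matched a log2 fold change of -1.06 in I53A and -2.04 in QKO. Ascl2 went the other way, with -1.59 ± 0.40 (SE), adjusted p = 0.00614 in edgeR, since it was higher in QKO and overlapped in I53A.

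For Id3 the effects were 1.09 and 1.02 in I53A and QKO, and their difference of 0.09 ± 0.16 (SE) did not pass the threshold, with an adjusted p of 0.718 in edgeR. The difference for Hes1 was -0.24 ± 0.17 (SE), adjusted p = 0.313. Tal1, called in QKO and not in I53A, had a difference of 0.67 ± 0.62 (SE), adjusted p = 0.438, so no difference between its effects was shown. The same holds for Id2, at -0.04 ± 0.14 (SE).

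**Figure D4:**
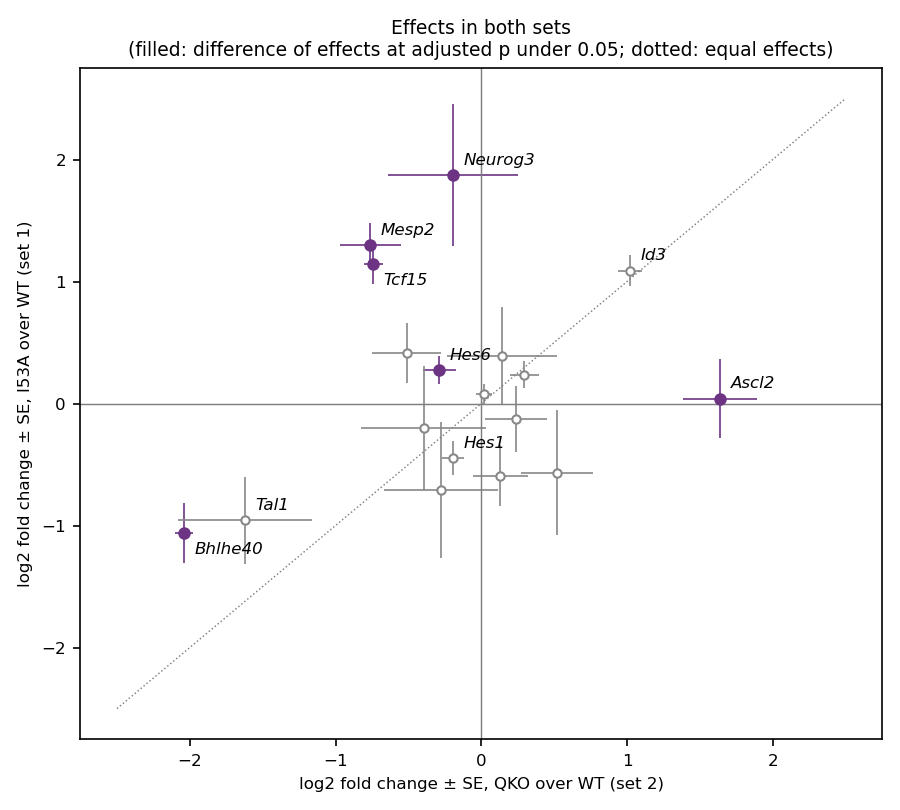
Log2 fold change ± SE of the 18 bHLH genes tested in both sets, QKO over WT on the horizontal axis and I53A over WT on the vertical axis, with filled points where the difference of effects had an adjusted p under 0.05 and a dotted line of equal effects. Mesp2 and Tcf15 lie upper left, Ascl2 far right, Bhlhe40 lower left, and Id3 on the dotted line at upper right.

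Partners and inputs of the family were read from the same fits. Of the E proteins, the common dimer partners, Tcf12 was higher in I53A, at 49.3 ± 5.56 CPM against 38.9 ± 1.11 CPM in WT, and none of the 3 was called lower (median log2 fold change -0.26, beside 0.00 over all genes). Tcf3 and Tcf4 had every I53A library below WT, at -0.38 ± 0.13 and -0.26 ± 0.13 (log2 fold change ± SE), with adjusted p of 0.0524 and 0.166 in edgeR. In QKO, Tcf12 and Tcf3 were lower and none was called higher (median -0.23), with Tcf12 at 37.0 ± 1.13 CPM against 50.0 ± 2.16 CPM in WT (SD, n = 3 each). Of 6 Groucho corepressors, 1 rose in I53A, the short member Aes, at a log2 fold change of 0.47 ± 0.08 (SE). The median over the 6 was 0.14. In QKO 4 rose and 1 fell around a median of 0.21, with Tle6 at 0.90 ± 0.12, Tle1 at 0.24 ± 0.07, Aes at 0.23 ± 0.04 and Tle3 at -0.34 ± 0.05 (log2 fold change ± SE). Of the E proteins 33.3% were called in I53A and 66.7% in QKO, and of the Groucho genes 16.7% and 83.3%. Over all genes tested the shares were 35.5% and 57.7%.

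Of 12 Notch pathway genes tested in each set, 1 rose and 1 fell in I53A, at a median log2 fold change of -0.05. These were the coactivator Maml3, at a log2 fold change of 1.6 ± 0.42 (SE), and the receptor Notch3, at -0.42 ± 0.09. In QKO 6 rose and 4 fell, at a median of 0.32. These are 16.7% of the list called in I53A and 83.3% in QKO, where 35.5% and 57.7% of all tested genes were called. The ligand Jag1 was at 0.80 ± 0.11 and the ligand-like Dll3 at -2.11 ± 0.21, with 79 counts in QKO and 319 in WT. Maml3 rose by 1.97 ± 0.36, and Maml2 held 90 counts in QKO and none in WT of set 2. With the WT group set to a floor of 3 counts the Maml2 ratio was 28.1, and the exact 95% counting interval began at 22.4. In set 2 Maml2 passed the low-count filter through the QKO libraries alone, so its place in the count is a description and no support. Maml2 was not silent in WT of set 1, where it held 46 counts.

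Of 13 BMP pathway genes tested in set 1, 2 rose and 1 fell in I53A, at a median log2 fold change of 0.17. This is 23.1% called, beside 35.5% of all genes tested. The ligand gene Bmp2 had 103 counts in I53A and 1 in WT, a scaled ratio of 104 with an exact 95% counting interval of 18.2 to 4130. It passed the low-count filter through the I53A libraries alone, so its place in this count is a description and no support. The receptor Bmpr2 was at a log2 fold change of 0.59 ± 0.12 and the signal transducer Smad1 at -0.60 ± 0.16 (SE). Of 11 tested in set 2, 4 rose and 3 fell in QKO, at a median of 0.06. Here 63.6% were called, beside 57.7% of all genes tested. The receptors Bmpr1b and Bmpr1a were at 1.21 ± 0.26 and 0.47 ± 0.04, the ligand Bmp7 at -1.02 ± 0.12 and the inhibitory Smad6 at -0.67 ± 0.13 (log2 fold change ± SE).

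Other tissue bHLH genes, outside the rule, were read beside the members. In I53A 5 of 9 rose and 1 fell, at a median log2 fold change of 0.42. This is 66.7% called, beside 35.5% of all genes tested. Tcf23 had 347 counts in I53A and 15 in WT, a log2 fold change of 4.47 ± 0.38 (SE), and Mycn, the proto-oncogene, fell to 70.3 ± 3.46 CPM in I53A, against 152 ± 14.1 CPM in WT (SD, n = 3 each). Tcf23 passed the low-count filter through the I53A libraries in which it was high. In QKO 2 of 10 rose and 3 fell, at a median of -0.20. Here 50.0% were called, beside 57.7% of all genes tested. Msc, of branchial muscle, was at -1.88 ± 0.13 in QKO and 0.83 ± 0.13 in I53A, and Bhlha15, of secretory cells, at -0.93 ± 0.20 in QKO and 1.01 ± 0.19 in I53A (log2 fold change ± SE). In QKO, Tcfl5 was at 0.95 ± 0.06 and Mycl1 at 0.75 ± 0.08.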

How the data were processed

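RNA-seq counts of 12 libraries were used. Raw count tables, 1 per library, were deposited by the authors; per the file headers, paired-end fragments were counted by gene name with featureCounts version 1.6.3 on the GENCODE annotation of NCBIM37 (mm9), with no option set for strand, multiple alignments or overlapping genes. The tables also give exon length, used for RPKM. Per the labels' protocols, TRIzol RNA went into Illumina TruSeq libraries; how RNA was selected is not given in the sources used. Per the file headers the alignments of set 1 carry TopHat in their names and those of set 2 do not, while HISAT2, Bowtie2, featureCounts, SAMtools and DESeq2 appear in the submitters' processing notes, so the aligner of each set is not settled.

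Counts were tested with edgeR version 4.0.16 (R version 4.3.3; TMM, filterByExpr with a minimum count of 10, robust quasi-likelihood, two-sided, Benjamini-Hochberg over all genes tested, threshold 0.05). Each set was fitted alone on 6 libraries; the difference of effects was fitted on all 12. The fits were tested on simulated data. Alternatives were DESeq2 version 1.42.0 and its size factors, other filters, a replicate block, replicates 1 and 2 of set 1 only, and leaving out each library. In set 1, same-numbered libraries of the 2 groups deviated together (correlations 0.229, 0.258 and 0.491), which met the rule for pairing used here, every pair over 0.1. Replicates 1 and 2 were as close across numbers (0.241 and 0.218), so replicate 3 alone stands apart. In set 2, same-numbered libraries did not deviate together. The set 1 calls and shares given in the results come from the fit without the replicate block, unless the block is named. More genes were called in set 1 with the block, so the set 1 share of all genes called depends on this choice. Chi-square per degree of freedom between replicates was 2.19 to 27.3, so each library counted once. Intervals of count ratios are exact 95% intervals and, like the floor of 3 counts, cover counting error only.

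The members, roles and companion lists were chosen with earlier results of these data known. Values per library are given for members called with at least a 2-fold change and for the member with the highest level per length in each role; some further members were named after their values were seen. Promoter sequences are from RefSeq (GRCm38.p6).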

Additional observations from a re-analysis of the deposited data

Results flagged for a closer look

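The effects of I53A and QKO, each against its own WT, differed for 7 bHLH genes by the interaction test in edgeR (adjusted p under 0.05). Of all genes tested, 36.1% differed. The difference of log2 fold changes was 4.48 for Hand1, 2.08 for Mesp2, 2.08 for Neurog3, 1.90 for Tcf15, 0.99 for Bhlhe40, 0.59 for Hes6 and -1.59 for Ascl2. All 3 I53A libraries were higher than every WT library for Hand1, Mesp2, Neurog3, Tcf15 and Hes6, and lower for Bhlhe40. All 3 QKO libraries were lower than every WT library for Hand1, Mesp2, Tcf15 and Bhlhe40, and higher for Ascl2. Groups lay apart in either direction for 49.4% of all tested genes in set 1 and 61.5% in set 2. The 7 genes were picked by a test on these same libraries, so this separation is a description and no support.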

How the results depend on the processing

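With the replicate block, 8798 genes were called in set 1, and with replicates 1 and 2 only, 8343. No filter gave 5 higher members in QKO, adding Bhlhe23 and Myod1. Leaving out 1 library at a time gave 3828 to 5917 calls in set 1, with 5 to 6 members higher and 1 to 3 lower, and 8071 to 8743 calls in set 2, with 3 to 5 higher and 4 to 7 lower; all the set 1 runs with 1 lower member had lost Hes1, and the 5 higher of set 2 came without WT replicate 2. In set 2 the replicate numbers pair nothing (correlations 0.0236, -0.00393 and 0.042); there the replicate block gave 9080 calls and changed no member's call. Over the 12 libraries it gave 8076 calls for the difference of effects and added Neurod1. Values that were not called turned in direction for several genes. Leaving out 1 library, log2 fold changes ranged from -0.287 to 0.311 for Ascl2, -0.466 to 0.0869 for Lyl1 and -0.00543 to 0.112 for Id1 in I53A, and from -0.416 to 0.00185 for Neurog3 and -0.0252 to 0.0594 for Id1 in QKO. Hey1 in I53A was at 0.13 without I53A replicate 2, and in QKO Olig1 was at 0.381 without WT replicate 3 and Twist1 at -0.0182 without WT replicate 1. With replicates 1 and 2 only, they were -0.105 for Ascl2, 0.343 for Lyl1 and -0.018 for Id1 in I53A. The cause was not tested. Over the 24 gene and comparison pairs of the named genes, 244 values under other settings kept direction and side of the threshold, 15 lost and 2 gained a call, and 11 turned sign; changes for other members are not in these counts. Low counts limit most proneural, muscle and bHLH-PAS genes.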
